A study of Ovis aries with 5 samples.

Results

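The sugar transporter genes SLC2A1 and SLC2A5 and the glycolysis genes PFKL and ALDOA were followed in sheep dendritic cells (DC), which carry antigen from the skin to the lymph nodes by way of the lymph. These 4 genes, of 747 that could be named on the array, were found by the gene name or description in the array files. They had 7 of the 15008 distinct probes. 6 of them were among the 13252 probes bright enough to be tested. SLC2A1 (GLUT-1 in the files), SLC2A5 and ALDOA had 2 probes each, and PFKL (PFK-L in the files) had 1.

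Lymph DC had been sorted by the labels into CD1b+CD26+ and CD1b+CD26- cells from the same 2 sheep, numbered 30066 and 10081, so that each subset had 2 arrays. RNA of the sorted cells carried Cy3, and the Cy5 reference on every array was total enriched lymph DC of distinct sheep. On 1 further array, the self-hybridisation, the reference carried both dyes. The design sets the subsets against each other and each of them against total DC. By the sample labels the reference came from distinct sheep and was total rather than sorted DC. In the comparisons with total DC, the subset, the sheep and the sorting therefore cannot be told apart. No treatment other than the sort, and no age or sex of the sheep, was used here. The labelling protocol, unlike the sample labels, names cultured cells, LP-1cl1, as the source of the Cy5 RNA. The labels and the protocol do not settle which was used, and the source was not tested here. Cy5 signals of DC markers are given with the marker genes below. The reference is called total DC below, as in the sample labels.

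Glucose and fructose enter cells through facilitative transporters of the SLC2A (GLUT) family. SLC2A1 is the widespread basal glucose transporter, and SLC2A5 is a transporter of fructose. Phosphofructokinase, of which PFKL encodes the liver-type subunit, catalyses the committed step of glycolysis, and aldolase A, encoded by ALDOA, splits the fructose bisphosphate that it makes. DC are known to draw on glycolysis when they are activated.

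The probes are 60 bases long, and how far those of a gene overlap decides how far they are separate readings. The sequences are those of the array files, written from 5′ to 3′, with the bases shared by the 2 probes of a gene in capitals. For PFKL, the single probe is shown because every PFKL value rests on it, and for ALDOA both probes are shown because they read nearly separate stretches.
PFKL P026561: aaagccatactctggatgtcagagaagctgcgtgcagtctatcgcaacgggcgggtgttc
ALDOA P041622: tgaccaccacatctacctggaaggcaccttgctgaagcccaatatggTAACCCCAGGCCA
ALDOA P041621: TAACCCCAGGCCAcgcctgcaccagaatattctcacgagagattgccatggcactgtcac
SLC2A5, shared bases: AGATTACTGATCCCAAATTA
SLC2A1, first shared bases: AATCTGTAGGGGCGGACTATGACTAAGGAC
The ALDOA probes share 13 bases and cover 107 bases together, and the SLC2A5 probes share 20 and cover 100. The SLC2A1 probes share 59 of their 60 bases, so they are close to 1 probe read in 2 spots and are not separate evidence. No other probe on the array shares a run of 15 bases with any of the 7. The PFKL and ALDOA probes were designed on expressed sequence tags, and their gene names are those of the array design.

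Values are log2 of Cy3 over Cy5, sample over reference, after background correction and normalisation within each array. A value of 0 means the same signal as total DC, and 1 means 2-fold more. Differences between groups are differences of these log2 ratios, with a standard error (SE) from limma, a linear model fitted to all 5 arrays. The 2 subset comparisons with total DC share the 1 self-hybridisation as control, so they are not independent of each other. In that model no probe of the array passed the threshold in any comparison (adjusted p under 0.05, Benjamini-Hochberg over 13252 probes). The calls were 0 probes, or 0%, between the subsets, for CD26+ and for CD26- cells against total DC. The smallest adjusted p was 0.767, 0.305 and 0.351, while 743, 1494 and 1402 probes had an unadjusted p under 0.05. Values below are therefore given as sizes with their error.

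On every array, PFKL and ALDOA stood well above total DC in the sorted cells, SLC2A5 stood well below it, and SLC2A1 lay on both sides of it, with lower values in CD26+ than in CD26- cells. Among the 6 tested probes, the 1 of PFKL and the 2 of ALDOA were at least 2-fold above the self-hybridisation on all 4 subset arrays, as were 5.49% of all tested probes. The tested SLC2A5 probe was at least 2-fold below it on all 4, as were 3.69% of all tested probes.

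**Figure D1:**
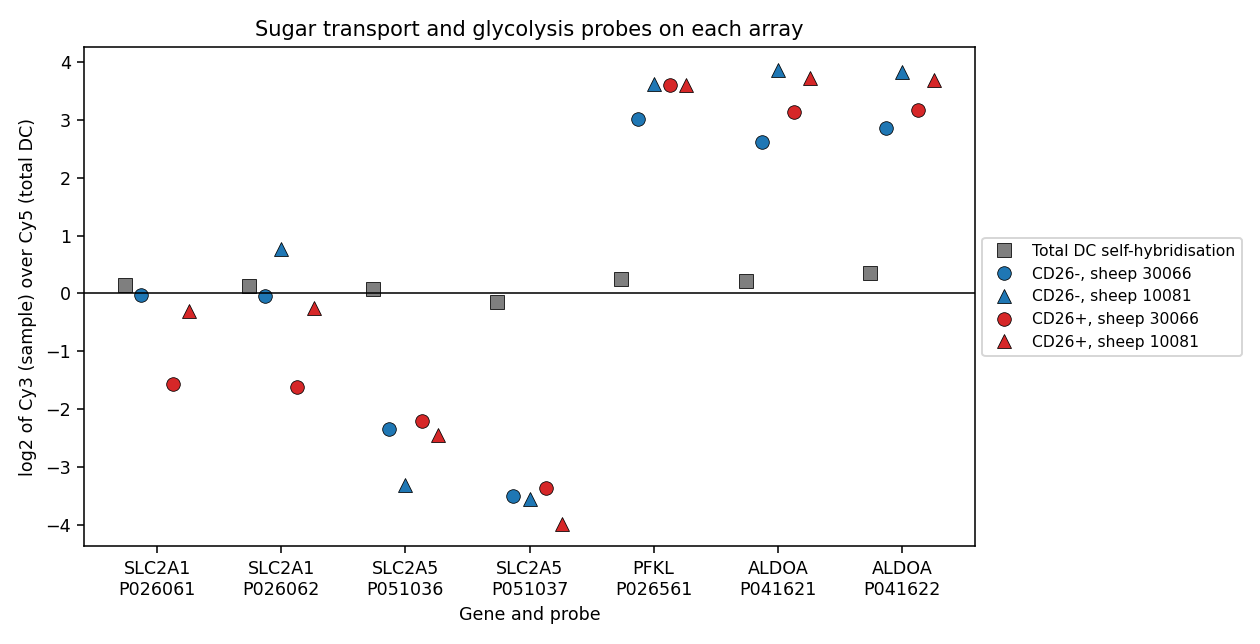
Each point is the log2 ratio of Cy3 (sample) over Cy5 (total DC) of 1 probe on 1 array, with the self-hybridisation as squares, CD26- arrays in blue, CD26+ arrays in red, sheep 30066 as circles and sheep 10081 as triangles. The subset arrays lie at 2.62 or above for PFKL and ALDOA and at -2.20 or below for SLC2A5, while SLC2A1 spreads from -1.62 to 0.76; the outlier-flagged SLC2A1 spot is not drawn.

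SLC2A1, the basal glucose transporter, was lower in CD26+ than in CD26- cells of the same sheep. The log2 ratios of probe P026062 were 0.12 on the self-hybridisation, -0.05 in CD26- and -1.62 in CD26+ cells of sheep 30066, and 0.76 in CD26- and -0.25 in CD26+ cells of sheep 10081. The CD26+ arrays were both below both CD26- arrays, and the CD26+ array of sheep 30066 was the lowest of all. The gap between CD26+ and CD26- cells was -1.57 in sheep 30066 and -1.01 in sheep 10081, a 2.45-fold lower level on average. The mean difference of -1.29 had an SE of 0.63 and a 95% interval of -2.99 to 0.41 (n = 2 sheep, limma adjusted p = 0.918), so it did not pass. That fit did not pair the arrays by sheep, so differences in level between the sheep enter its error. With a block for sheep the same difference had an SE of 0.33 (limma adjusted p = 0.585) and did not pass either. The difference lay between -1.98 and -0.61 when single arrays were left out: it was -0.61 without the CD26+ array of sheep 30066 and -1.98 without that of sheep 10081. In RNA of bulk cells, fewer cells of a type and less RNA per cell cannot be told apart.

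The order of SLC2A1 levels was CD26- of sheep 10081, the self-hybridisation, CD26- of sheep 30066, CD26+ of sheep 10081 and CD26+ of sheep 30066, and no test separates neighbours in that order. The group means of P026062 were 0.36 ± 0.57 (SD, n = 2) in CD26- and -0.94 ± 0.97 (SD, n = 2) in CD26+ cells. These SDs include differences in level between the sheep. Neither subset passed against total DC. The difference was -1.06 (SE 0.78, adjusted p = 0.681) for CD26+ and 0.24 (SE 0.78, adjusted p = 0.955) for CD26- cells, by limma. In CD26+ cells it was -1.74 in sheep 30066 and -0.37 in sheep 10081, which are also its values without the other sheep's CD26+ array.

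The overlapping SLC2A1 probe P026061 read 0.14 on the self-hybridisation, -0.02 in CD26- and -1.57 in CD26+ cells of sheep 30066, and -0.31 in CD26+ cells of sheep 10081. Its spot on the CD26- array of sheep 10081 was flagged as an outlier by the scanner software and left out. The fit for this probe therefore rests on 4 arrays, and its subset difference of -0.92 (SE 0.76, limma adjusted p = 0.987) has sheep 10081 on 1 side only. Kept, that spot would have read 0.72, and the difference would have been -1.29. Where both were read, the 2 probes were within 0.06 of each other on the log2 scale.

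SLC2A1 was the only member whose arrays did not overlap between the subsets: of the 6 tested probes, P026062 was lower in CD26+ cells without overlap, and none was higher. Over the whole array 16.2% of probes were lower and 14.7% higher without overlap, so the count of lower member probes was close to the share over the array. P026062 was also the only tested member probe at least 2-fold lower in CD26+ cells of both sheep. Of all tested probes 2.90% were so, with 2.36% at least 2-fold higher in both.

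SLC2A5, the fructose transporter, was far below total DC in both subsets, by both of its probes. The log2 ratios of probe P051036 were 0.07 on the self-hybridisation, -2.35 in CD26- and -2.20 in CD26+ cells of sheep 30066, and -3.31 in CD26- and -2.45 in CD26+ cells of sheep 10081. All 4 subset arrays lay far below the self-hybridisation. The difference from total DC was -2.40 (SE 0.58, 95% interval -3.95 to -0.84), or 5.26-fold lower, in CD26+ cells, and its limma adjusted p was 0.340. In CD26- cells it was -2.90 (SE 0.58, 95% interval -4.45 to -1.34), or 7.45-fold lower, and its limma adjusted p was 0.351. When normexp, the background model, was fitted to all spots, those beside bright specks included, the CD26- difference was -1.44 (adjusted p = 1).

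The uncorrected signals of SLC2A5 show each channel apart. The Cy3 signal of P051036 was 489 scanner units on the self-hybridisation, 116 and 112 in CD26- and CD26+ cells of sheep 30066, and 71.5 and 147 in those of sheep 10081. Its Cy5 signal of the reference lay between 915 and 1408 on the 5 arrays. The Cy3 signal was thus lower in all 4 samples of sorted cells than on the self-hybridisation, and the Cy5 signals of the subset arrays lay on both sides of its Cy5 signal of 1022.

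The other SLC2A5 probe, P051037, gave a Cy3 signal of 485 on the self-hybridisation. On the 4 subset arrays it gave 60.5 to 61.6 over a local background of 38 to 41, and was not well above background on any of them. It was therefore not tested, and its ratios of -3.36 to -3.98 are only bounds. Taking for each array the higher of its own signal and the lowest signal of a probe well above background, P051037 was at least 8.70-fold lower in CD26+ and at least 9.71-fold lower in CD26- cells than in total DC. In both subsets this came out at the mean of the probe's own signals. By its log2 ratios the tested probe P051036 was 5.26-fold lower in CD26+ and 7.45-fold lower in CD26- cells, less than these bounds. When normexp was fitted to all spots, the log2 difference of P051037 was -2.77 in CD26+ and -1.40 in CD26- cells. The bounds therefore hold only for the background model used here. They compare Cy3 signals after loess and scaling between arrays, and are open to dye bias because no dyes were swapped.

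Between the subsets SLC2A5 did not pass the test. P051036 was higher in CD26+ cells by 0.14 in sheep 30066 and by 0.86 in sheep 10081. The mean of 0.50 had an SE of 0.47 and a 95% interval of -0.77 to 1.77 (limma adjusted p = 0.998), and the arrays of the subsets overlapped. When normexp was fitted to all spots the difference was -0.51, the opposite direction.

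**Figure D2:**
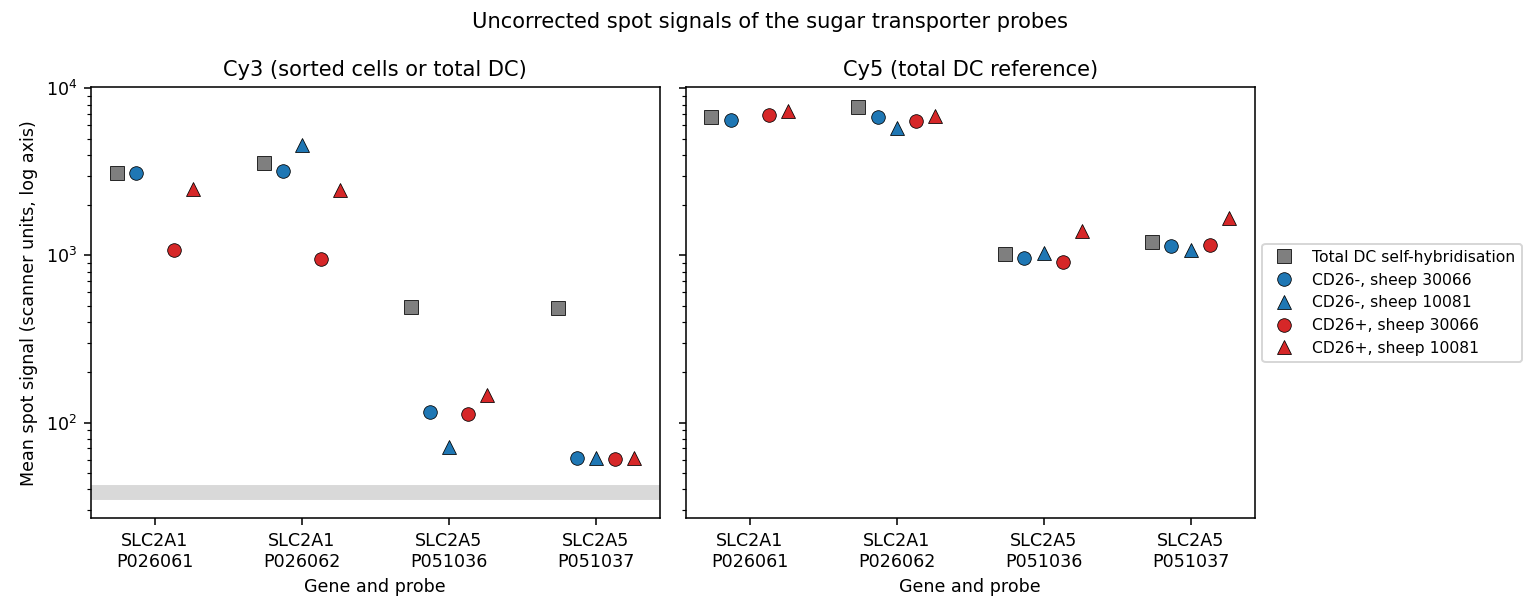
Mean spot signals before correction, in scanner units on a log axis, of the SLC2A1 and SLC2A5 probes in Cy3 (left, sorted cells or total DC) and Cy5 (right, the total DC reference) on each array; the grey band is the range of local Cy3 background. For SLC2A5 P051037 the 4 subset arrays sit at 60.5 to 61.6 against 485 on the self-hybridisation, and its Cy5 signal stays between 1079 and 1676.

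PFKL, the liver-type subunit of phosphofructokinase, was about an order of magnitude above total DC in both subsets. Its log2 ratios were 0.24 on the self-hybridisation, 3.01 in CD26- and 3.61 in CD26+ cells of sheep 30066, and 3.62 in CD26- and 3.61 in CD26+ cells of sheep 10081. Of the subset arrays, the CD26- array of sheep 30066 was the lowest and the other 3 were within 0.01 of each other. Its Cy3 signal was 731 on the self-hybridisation and lay between 5193 and 9432 in the sorted cells, while the Cy5 signal stayed between 1252 and 1582. PFKL was higher than total DC by 3.37 (SE 0.48, 95% interval 2.08 to 4.66), or 10.4-fold, in CD26+ cells, with a limma adjusted p of 0.305. In CD26- cells it was higher by 3.08 (SE 0.48, 95% interval 1.79 to 4.37), or 8.47-fold, with a limma adjusted p of 0.351. Ordered by the size of the difference, PFKL was number 167 of 13252 probes from the highest in CD26+ and number 204 in CD26- cells.

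ALDOA, the aldolase of the step after phosphofructokinase, was also far above total DC, by both probes. The log2 ratios of P041622 were 0.36 on the self-hybridisation, 2.85 in CD26- and 3.17 in CD26+ cells of sheep 30066, and 3.82 in CD26- and 3.68 in CD26+ cells of sheep 10081. Both arrays of sheep 10081 were above both of sheep 30066, whichever the subset. P041621 read 0.22 on the self-hybridisation, 2.62 and 3.13 in CD26- and CD26+ cells of sheep 30066, and 3.86 and 3.72 in those of sheep 10081, in the same order of sheep. Sheep 30066 shared its slide row with the self-hybridisation and sheep 10081 lay in the other row, so a sheep effect and a slide row effect cannot be told apart.

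For P041622 the difference from total DC was 3.07 (SE 0.61, 95% interval 1.43 to 4.71), or 8.38-fold, in CD26+ and 2.98 (SE 0.61, 95% interval 1.33 to 4.62), or 7.87-fold, in CD26- cells. The limma adjusted p was 0.327 and 0.351. For P041621 it was 3.20 (SE 0.70, adjusted p = 0.338) and 3.01 (SE 0.70, adjusted p = 0.362), 9.19-fold and 8.07-fold. Within the slide row of the self-hybridisation, P041622 stood at 2.81 in CD26+ and 2.49 in CD26- cells, and in the other row at 3.32 and 3.46. No member probe was saturated, although the Cy3 signal of P041622 reached 57966 scanner units.

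PFKL and ALDOA did not differ between the subsets beyond the error. The difference, CD26+ minus CD26-, was 0.29 for PFKL (SE 0.39, 95% interval -0.76 to 1.34), 0.19 for ALDOA P041621 (SE 0.57, interval -1.35 to 1.72) and 0.09 for P041622 (SE 0.50, interval -1.25 to 1.43). The limma adjusted p was 1 for all 3. In sheep 30066 CD26+ cells were higher, by 0.59, 0.51 and 0.32. In sheep 10081 they were lower, by -0.01, -0.14 and -0.14. The intervals leave room for differences of more than 2-fold in either direction for ALDOA and upwards for PFKL.

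The comparison with total DC can also be made against the Cy5 signal of the same array alone, testing whether the log2 ratio of a subset differs from 0. This leaves any dye effect of a probe in its value, and it leaves out the spread of the reference. On the self-hybridisation, 1 array on which dye effect and spot noise cannot be told apart, the 7 probes read from -0.15 to 0.36. By limma, 1173 of 13252 probes (8.85%) passed in CD26+ cells, 645 higher (4.87%) and 528 lower (3.98%). In CD26- cells 1089 passed (8.22%), 660 higher (4.98%) and 429 lower (3.24%).

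In this test PFKL, both ALDOA probes and SLC2A5 P051036 passed in both subsets, 4 of the 6 tested probes. PFKL rose by 3.61 (limma adjusted p = 0.0276) in CD26+ and by 3.32 (adjusted p = 0.0327) in CD26- cells. ALDOA P041622 rose by 3.43 (adjusted p = 0.0318) and 3.34 (adjusted p = 0.0337), and P041621 by 3.43 (adjusted p = 0.0339) and 3.24 (adjusted p = 0.0342). SLC2A5 P051036 was lower, at -2.33 (adjusted p = 0.0359) in CD26+ and -2.83 (adjusted p = 0.0342) in CD26- cells. SLC2A1 did not pass, with P026062 at -0.94 (adjusted p = 0.236) in CD26+ cells. Calls in the comparison with total DC thus depend on whether the single self-hybridisation is subtracted.

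The members were set beside a list of 59 genes of sugar transport, glycolysis, the pentose phosphate pathway and their control. Of these 19 were on the array and 18 were tested, the members included, each by its brightest probe. No gene of the list passed between groups in the model with the self-hybridisation. Against total DC, 4 of the 18 exceeded it 2-fold or more in CD26+ cells of both sheep and 1 was at least 2-fold lower, beside 9.72% and 8.64% of all tested probes. In CD26- cells 6 were higher and 1 was lower, beside 10.0% and 7.41%. The median difference of the list was 0.41 in CD26+ and 0.62 in CD26- cells, against -0.02 and -0.03 over all tested probes. Without the 4 members, 2 of 14 genes were at least 2-fold higher and 0 lower in CD26+ cells of both sheep. In CD26- cells 4 of the 14 were higher and 0 lower. The medians without the members were again 0.41 and 0.62. With each array centred on its median in place of loess the list medians were 0.15 and 0.28. The CD26- median was 0.22 without the CD26- array of sheep 10081. The CD26+ median was 0.03 without the CD26+ array of sheep 10081 and 0.67 without that of sheep 30066.

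By the brightest probe of each gene, those at least 2-fold above total DC in both sheep besides PFKL and ALDOA were PGD and HIF1A in CD26+ cells, and PGD, GAPDH, SLC16A1 and SLC2A8 in CD26- cells. PGD, 6-phosphogluconate dehydrogenase of the pentose phosphate pathway, read -0.36 on the self-hybridisation, 1.64 in CD26- and 2.08 in CD26+ cells of sheep 30066, and 3.15 and 2.93 in those of sheep 10081. As for ALDOA, both arrays of sheep 10081 were the higher ones. PGD was above total DC by 2.87 (SE 0.82, limma adjusted p = 0.372) in CD26+ and by 2.76 (SE 0.82, adjusted p = 0.416) in CD26- cells. TALDO1, the transaldolase of that pathway, stood at 0.16 in CD26+ and 0.95 in CD26- cells.

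GAPDH, the enzyme that follows aldolase, had 5 probes. The brightest of them carries a gene entry on the array that none of the other 4 has. The brightest, P024456, read 0.08 on the self-hybridisation, 1.47 in CD26- and 0.89 in CD26+ cells of sheep 30066, and 1.46 and 0.95 in those of sheep 10081. It was above total DC by 1.39 (SE 0.41, limma adjusted p = 0.411) in CD26- and by 0.84 (SE 0.41, adjusted p = 0.524) in CD26+ cells. The other 4 probes gave 1.91 to 2.13 and 1.42 to 1.79, and each of them was at least 2-fold above total DC in CD26+ cells of both sheep. All 5 read lower in CD26+ than in CD26- cells without overlap, by -0.54 to -0.35 with SEs of 0.33 to 0.35, and none passed (limma adjusted p from 0.956 to 1). Tested against 0, GAPDH P024456 rose in CD26- cells by 1.46 (limma adjusted p = 0.0447), and in CD26+ cells the other 4 probes passed (adjusted p 0.0351 to 0.0353) while P024456 did not.

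SLC16A1, a carrier of lactate and pyruvate, was above total DC by 1.39 (SE 0.53, limma adjusted p = 0.481) in CD26- and by 0.76 (SE 0.53, adjusted p = 0.659) in CD26+ cells by its brightest probe, P026262. Tested against 0 it rose in CD26- cells by 2.03 (limma adjusted p = 0.0411), on a probe that read 0.64 on the self-hybridisation. Its other probe, P026261, read 1.83 in CD26- and 0.47 in CD26+ cells of sheep 30066, and 1.84 and 0.34 in those of sheep 10081. The CD26+ arrays were thus lower in both sheep, by -1.36 and -1.51, but the limma adjusted p of the mean difference of -1.43 (SE 0.34) was 0.778. P026261 was dim: it was not well above background in Cy3 on the self-hybridisation, and its Cy5 signal lay between 77.5 and 212, with an SD over arrays of 0.56 on the log2 scale. In sheep 10081 its Cy3 signal was 321 in CD26- and 193 in CD26+ cells, while its Cy5 signal was 112 and 212, so the gap there lay partly in the reference channel. By P026262 the gap was -0.90 in sheep 30066 and -0.35 in sheep 10081.

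SLC2A8, an intracellular glucose transporter, split by sheep. It read 1.34 in CD26- and -2.27 in CD26+ cells of sheep 30066, but 2.72 and 3.34 in those of sheep 10081. CD26+ cells were lower by -3.61 in the former and higher by 0.62 in the latter, and the second probe gave -3.59 and 0.75. HIF1A, a transcription factor that activates glycolysis genes when oxygen is low, also went opposite ways, with CD26+ minus CD26- at 2.11 in sheep 30066 and -0.81 in sheep 10081. No direction between the subsets can be given for either gene.

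Other genes of the list lay closer to total DC. LDHA, lactate dehydrogenase A, stood at 0.50 (SE 0.41) in CD26+ and 0.28 (SE 0.41) in CD26- cells. The glucose transporter SLC2A3 stood at 0.79 (SE 0.69) and 1.10 (SE 0.69), and between the subsets it went opposite ways in the sheep, at -1.20 in sheep 30066 and 0.58 in sheep 10081 by P051107 and at -0.26 and 0.56 by P051106. HK1, the hexokinase that traps glucose in the cell, was lower than total DC, at -0.99 (SE 0.48, limma adjusted p = 0.523) and -0.91 (SE 0.48, adjusted p = 0.607), on a probe well above background on 3 of the 5 arrays. The muscle and fat glucose transporter SLC2A4 stood at -0.68 and -0.35. By their brightest probes the liver-associated genes SLC2A2 and PKLR lay between -0.38 and 0.05 in both comparisons. The other PKLR probe, P068226, stood at -0.44 in CD26+ and -0.40 in CD26- cells. These probes were dim, with Cy3 signals of 62.8 to 118 over local backgrounds of 35 to 50, which limits how far their ratios can move. The sodium-driven glucose transporter SLC5A1 was not well above background on any array and was not tested.

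**Figure D3:**
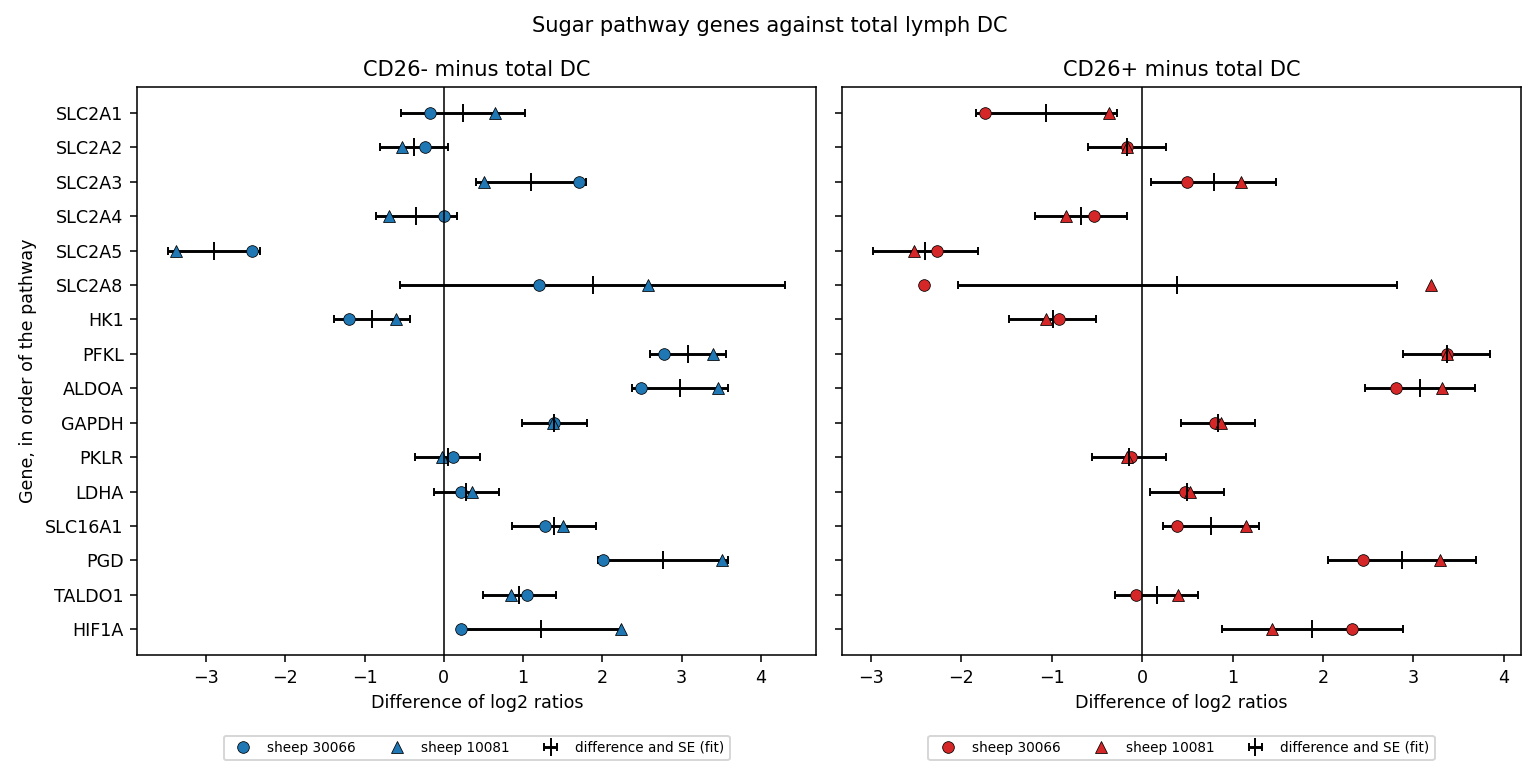
Difference of log2 ratios from the self-hybridisation for 16 of the 18 tested genes of the sugar list, CD26- cells on the left and CD26+ cells on the right, by the brightest probe of each gene. Circles and triangles are sheep 30066 and 10081, and bars are the fitted difference with its SE. The fitted differences of PFKL, ALDOA and PGD lie at 2.76 or above in both panels and that of SLC2A5 at -2.40 or below.

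Between the subsets the sugar list had a median difference of 0.00, the same as over all tested probes. Of the 18 genes, 4 were higher in CD26+ cells without overlap, SLC2A2 and LDHA among them, and 5 were lower (SLC2A1, SLC16A1, GAPDH, TALDO1 and PKLR), beside 14.7% and 16.2% of all tested probes. SLC2A2 and LDHA were each higher by 0.22, less than their SE of 0.35 and 0.34. By the brightest probe of each gene, SLC2A1 was the one gene on the lower side at least 2-fold apart in both sheep, while the dimmer SLC16A1 probe P026261 was so too. TALDO1 stood at -0.78 (SE 0.37, limma adjusted p = 0.910).

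**Figure D4:**
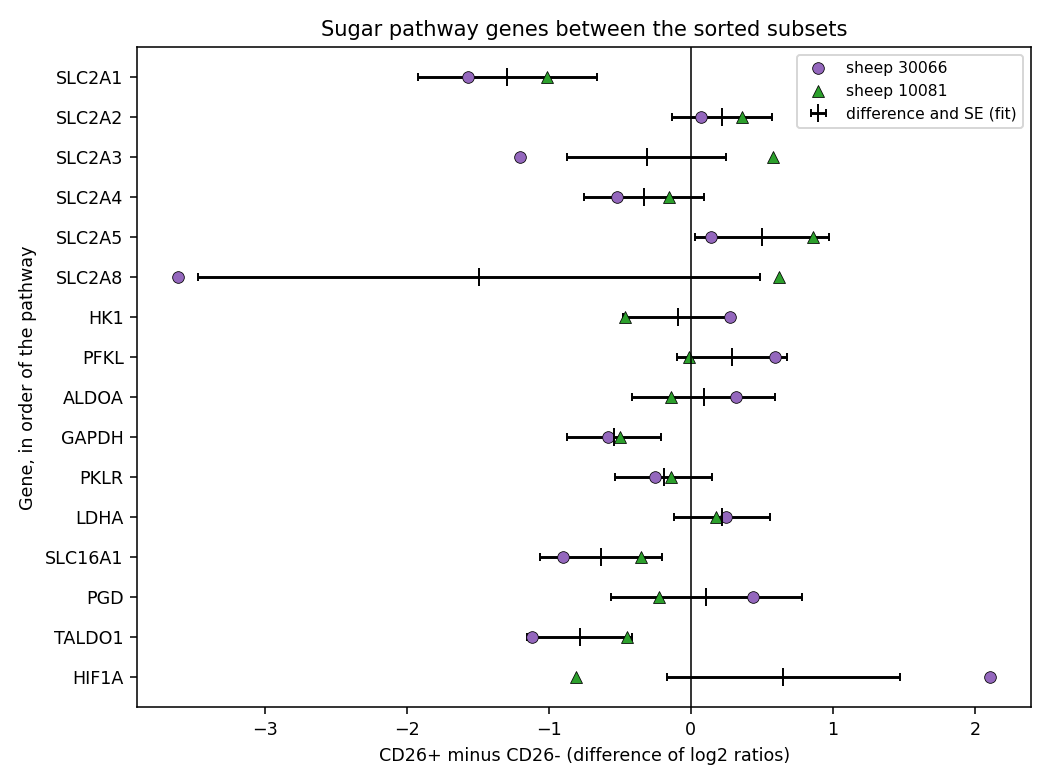
Difference of log2 ratios between CD26+ and CD26- cells for the same 16 genes, with sheep 30066 as circles, sheep 10081 as triangles and bars for the fitted difference with its SE. SLC2A1 lies to the left of 0 in both sheep, PFKL and ALDOA lie within 0.59 of 0, and the sheep lie on opposite sides for SLC2A8 and HIF1A.

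Among 621 named genes that were tested, those with the pattern over the 5 arrays nearest to each member were found by the root mean square difference of the log2 ratios. For SLC2A1 P026062 they were IRF2 at 0.21, ITGB2 at 0.25 and CLEC6A at 0.27. IRF2, an interferon regulatory factor, read -1.71 and -0.11 in CD26+ and 0.24 and 0.42 in CD26- cells of sheep 30066 and 10081. For SLC2A5 P051036 they were TXN at 0.57, the cytokine IL10 at 0.60 and SQLE at 0.64, so the nearest gene was farther away than for SLC2A1. For PFKL they were the cytokine TNF at 0.46 and the tight junction genes CLDN3 at 0.55 and CLDN4 at 0.57. For ALDOA P041622 they were CLDN3 at 0.62, PI3 at 0.63 and TNF at 0.63. TNF read 3.57 and 3.82 in CD26- and CD26+ cells of sheep 30066 and 2.96 and 4.05 in those of sheep 10081. These are descriptions of 5 arrays, of which the 4 subset arrays come from 2 sheep.

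Marker genes checked the labelled cells. Of 10 DC markers 3 were on the array (CD1B, CD1 and CD86), and all 3 were well above background on the 4 subset arrays. In Cy5, the reference channel, CD1B read 114040 to 146090 scanner units over the 5 arrays, CD1 93082 to 131380 and CD86 12045 to 15786. The source of the reference was not tested. CD86 read -0.08 on the self-hybridisation, -1.73 and -1.91 in CD26- and -0.84 and -0.58 in CD26+ cells of sheep 30066 and 10081. Between the subsets CD86 was higher in CD26+ cells, by 0.90 and 1.32, and did not pass. CD1B was lower there, by -0.20 and -0.43, and CD1 by -0.22 and -0.25. Against total DC, CD1B stood at 0.17 in CD26+ and 0.48 in CD26- cells (SE 0.71), and CD1 at 0.21 and 0.45 (SE 0.50). Of 8 T cell markers 6 were tested and 5 were well above background on all subset arrays. Their mean log2 ratio was 0.06 on the self-hybridisation, 0.07 and 0.70 in CD26- cells and 0.45 and 1.20 in CD26+ cells of sheep 30066 and 10081, so this mean was higher in CD26+ cells of both sheep, where SLC2A1 was lower. Its members did not move together: 3 of the 6 were higher in CD26+ cells of both sheep and 2 were lower, among them CD3D, a chain of the T cell receptor complex, by -1.31 in sheep 30066 and -0.93 in sheep 10081. CD3E, another such chain, stood at -0.27 and 0.97. Single markers lay far from the mean. The log2 ratios of CD3D were -0.10 on the self-hybridisation, 1.41 and 4.11 in CD26- and 0.10 and 3.18 in CD26+ cells of sheep 30066 and 10081. In the same order, CD5 read 0.21, -0.18 and 0.99, and 2.12 and 1.82. CD247 lay below total DC, at -0.03, -1.92 and -2.53, and -0.30 and -1.44. CD14, a monocyte marker and the only 1 of 6 on the array, was lower in CD26+ cells of both sheep, by -0.32 and -1.87. Of the NK cell markers 2 were tested, with mean log2 ratios of 0.18 on the self-hybridisation, -2.47 and -0.60 in CD26- and -1.04 and -0.76 in CD26+ cells. These means rest mostly on GNLY, at -4.69 and -0.93 in CD26- and -2.02 and -1.38 in CD26+ cells of sheep 30066 and 10081. Between the subsets GNLY went opposite ways in the sheep, at 2.67 and -0.45. TBX21, a dim probe, lay between -0.26 and -0.07 on the subset arrays. The red cell marker HBB lay between -0.18 and 0.08, the means of 3 keratinocyte and stroma markers lay between -0.03 and 0.29, and no marker of B cells, neutrophils or platelets was on the array under the names used. The part of other cells in the values of SLC2A1, SLC2A5, PFKL and ALDOA was not tested. The Cy5 signal of the member probes had an SD over the 5 arrays of 0.08 to 0.25 on the log2 scale. From 80.8% to 88.7% of all probes were well above background in Cy3 on each array. CD26 itself was not analysed here, so the values are no check of the sort for it.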

How the data were processed

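Sorted and total lymph DC were measured on 5 Agilent 2-colour arrays of 1 slide, each with the sample in Cy3. Linear PCR amplified the RNA before labelling, per the labels' protocols, which can change transcript proportions. What was deposited per array is spot intensity, linear and not normalised, beside its local background, per the file headers (Feature Extraction 9.5.3.1). The deposited scanner ratio is in log10, red over green, per the file headers. The deposited value table, in log2, is that ratio with the sign turned, within 5e-10 (column medians -0.0681 to 0.0152), and so no separate alternative. Whether the authors centred it further is not given in the sources used here.

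Background was corrected by normexp on mean signals (offset 50), fitted without spots whose local background was over 5 times the median of their array (0 to 8 besides controls). Loess followed within arrays, with no scaling between them (limma 3.58.1, R 4.3.3). Control spots (536) and outlier-flagged spots (49 to 157 per array) were dropped. A probe was tested if well above Cy3 background on 2 or more of the 5 arrays, which left out 1756. Median Cy3 signals of 204 to 307 lay over backgrounds of 36.5 to 39, and the number of arrays limits the precision.

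The model had 3 group means (lmFit, eBayes), 2 residual and 2.37 prior degrees of freedom, and no block, and p-values were adjusted by Benjamini-Hochberg over 13252 probes with a threshold of 0.05. Labels pair the subsets by sheep, and same-sheep arrays deviated together (r = 0.33 across tested probes). Alternatives covered background, loess, scaling between arrays, scanner ratios, the dim-probe filter, outlier flags, the self-hybridisation, a block for sheep, and leaving out single arrays. The limma fit was tested on simulated log2 ratios for the comparison between the subsets. The other steps were not part of that test. Named are every member probe, the measured genes of the sugar list, of which some are counted but not reported by name here, and the 3 genes nearest to each member's brightest probe. Members, sugar list, cell type markers and background model were chosen with earlier results of these data known. Gene names are from the files and, for other genes, from sheep RefSeq (ARS-UI_Ramb_v3.0, names only).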

Additional observations from a re-analysis of the deposited data

How the results depend on the processing

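With 2 arrays a subset and 1 self-hybridisation, small differences cannot be shown, and SLC2A5 P051037 was limited by background. Over 27 results, 310 of the values under alternatives kept direction and side of the threshold or, where there was no test, moved by less than the spread. Besides these, 8 came to pass the threshold, 9 turned direction and 11 moved. Some of the 310 could not change in size, such as those with scaling between arrays. The same holds for a comparison with total DC when an array of the other subset was left out. Tested against 0 without the self-hybridisation, 1173 probes passed for CD26+ and 1089 for CD26- cells in place of 0 and 0. Among them, PFKL stood at 3.61 and 3.32, ALDOA P041621 at 3.43 and 3.24, ALDOA P041622 at 3.43 and 3.34, and SLC2A5 P051036 at -2.33 and -2.83. A replicate block for sheep, the pairing by the labels, left the calls at 0 in the 3 comparisons, with adjusted p of at least 0.577, 0.216 and 0.235, and 1126 probes had an unadjusted p under 0.05 between the subsets in place of 743. The block turned SLC2A1 P026061, CD26- against total DC, from -0.16 to 0.47, and keeping outlier-flagged spots, an alternative chosen after seeing the data, turned it to 0.21. Neither changed a call of any result. With normexp fitted to all spots, SLC2A5 P051036 turned to -0.51 between the subsets, and P051037 moved to -1.40 and -2.77 for CD26- and CD26+ cells against total DC and to -1.37 between the subsets. For CD26- cells against total DC, P051037 stood at -3.50 without background subtraction and at -3.14 with median centring, which also moved the median of the sugar list to 0.28. Leaving out single arrays gave -0.43 to 0.81 for ALDOA P041621, -0.40 to 0.58 for P041622 and -0.01 to 0.59 for PFKL between the subsets. It gave -0.17 to 0.64 for SLC2A1 P026062 in CD26- cells against total DC. The sugar list median ranged from -0.24 to 0.12 between the subsets and from 0.22 to 0.62 for CD26- cells against total DC. Scaling between arrays (Aquantile) leaves log2 ratios as they are by construction. The cause of these changes was not tested.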
